A study of Homo sapiens with 4 samples.

Results

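The 43 genes described here belong to the interferon response and to antigen presentation on MHC class I. They are a listed set of nucleic acid sensors, signalling factors, interferon-stimulated effectors and class I genes, 43 of the 60483 gene identifiers counted, and 37 of them had enough reads to be tested among 19027 genes. RNA with poly(A) tails was sequenced from H9 (WA09), an established line of human embryonic stem cells. There were 2 libraries from H9 cells with SLC35F2 knocked out (KO) and 2 from control H9 cells, and no agent, time or dose is given for either group. SLC35F2 encodes a membrane carrier of the solute carrier family. Reads assigned to genes numbered 27824693 in KO 1 and 36943597 in KO 2, against 37978705 in control 1 and 32423108 in control 2. Whether libraries with the same genotype were grown as independent cultures or derived from different clones is not stated in the labels, nor is the way the knockout was made. Each p-value therefore measures only the spread among the 4 samples, and that spread may be technical.

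Interferons are secreted proteins that warn cells of viral infection. Sensors of foreign RNA or DNA trigger their production, the receptor pair IFNAR1 and IFNAR2 passes the signal to STAT and IRF transcription factors, and these bind a short promoter element, the interferon-stimulated response element (ISRE), to switch on antiviral effectors and class I genes. Pluripotent stem cells are known to respond weakly to interferon while expressing some effectors, the IFITM genes among them, constitutively.

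The 3 IFITM genes were among the most abundant messages of these stem cells in both groups, while most classical interferon-stimulated genes were scarce. KO against control did not move any of the 43 genes past the test. In log2 ratio, the KO libraries lay further apart than the controls in 27 of 37 tested members (73.0%), beside 63.4% of all genes. KO 2 was above KO 1 in 29 of the 37 tested members (78.4%), while KO 2 was above KO 1 in 49.9% of all genes tested. Among members with a mean of at least 1 CPM, the widest gaps were in IFI16, BST2, IFIT1, IFITM1 and ISG15, with KO 2 at 3.91 to 12.1 times KO 1. The controls differed in the same direction in all 5, by 1.18 to 4.07 times. In bulk RNA, fewer cells expressing a gene and less RNA of it per cell cannot be told apart.

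The targeted gene SLC35F2 had 12.1 and 9.64 CPM (counts per 1000000 reads assigned to genes, with library sizes scaled by TMM factors) in the KO libraries, against 41.0 and 27.1 CPM in the controls. Its log2 fold change, KO over control, was -1.65 ± 0.35 (SE), with an edgeR quasi-likelihood p of 0.00124 and a Benjamini-Hochberg adjusted p of 0.58. Both KO libraries lay below both controls. The summed level of 12 pluripotent cell markers, POU5F1, NANOG and SOX2 among them, was 9260 and 6405 CPM in KO 1 and KO 2, against 8743 and 8764 CPM in the controls. These 3 genes differed in direction. POU5F1 had 400 and 226 CPM in KO, against 282 and 306 CPM in control. NANOG was below control in both KO libraries, with 46.2 and 19.1 CPM, against 61.2 and 64.6 CPM. SOX2 was highest in KO 2, with 326 and 426 CPM in KO, against 364 and 314 CPM in control. Defining blood cell markers were at or near 0 in every library, with PTPRC at 0.0727 and 0 CPM in KO and 0.265 and 0.0562 CPM in control.

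Promoters of 6 members are shown because they carry the ISRE and belong to the members whose levels are described most fully. Each line gives the 160 bases before the RefSeq start on GRCh38.p14, read 5′ to 3′ on the gene's strand, and capitals mark the ISRE core, GAAANNGAAA, found on either strand. In IFIT1 the core lies on the opposite strand and reads in reverse complement. Adjacent cores share bases in BST2, ISG15 and B2M. Another core of IFITM1 begins 6 bases before the start, runs past the printed stretch and is left unmarked. The positions are chr11:313880-314039 (+) for IFITM1, chr11:320861-321020 (-) for IFITM3, chr19:17405631-17405790 (-) for BST2, chr1:1013337-1013496 (+) for ISG15, chr10:89392463-89392622 (+) for IFIT1 and chr15:44711357-44711516 (+) for B2M.
IFITM1: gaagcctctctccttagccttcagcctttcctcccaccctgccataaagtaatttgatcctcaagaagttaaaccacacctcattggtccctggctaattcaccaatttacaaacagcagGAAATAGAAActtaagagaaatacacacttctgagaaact
IFITM3: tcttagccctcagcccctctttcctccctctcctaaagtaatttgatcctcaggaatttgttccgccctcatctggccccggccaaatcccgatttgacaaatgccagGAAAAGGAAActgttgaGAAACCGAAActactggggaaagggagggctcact
BST2: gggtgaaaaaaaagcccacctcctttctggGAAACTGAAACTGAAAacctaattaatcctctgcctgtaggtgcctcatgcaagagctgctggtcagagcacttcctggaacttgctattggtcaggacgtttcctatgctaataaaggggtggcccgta
ISG15: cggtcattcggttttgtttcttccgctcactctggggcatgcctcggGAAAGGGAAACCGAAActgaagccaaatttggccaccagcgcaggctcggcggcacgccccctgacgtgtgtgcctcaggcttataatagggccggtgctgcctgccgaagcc
IFIT1: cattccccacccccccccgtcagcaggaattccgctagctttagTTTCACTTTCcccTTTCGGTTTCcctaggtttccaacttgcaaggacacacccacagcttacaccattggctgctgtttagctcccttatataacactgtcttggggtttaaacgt
B2M: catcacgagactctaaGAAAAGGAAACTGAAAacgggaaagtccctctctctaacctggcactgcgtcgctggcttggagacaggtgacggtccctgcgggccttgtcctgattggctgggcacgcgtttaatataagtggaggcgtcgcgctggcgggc

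The IFITM proteins sit in cell membranes and block the entry of enveloped viruses. Their genes lie together on chromosome 11 (GRCh38, GENCODE 29), IFITM2 (ENSG00000185201.15) at 307631 to 315272 and IFITM1 (ENSG00000185885.14) at 313506 to 315272 on the plus strand and IFITM3 (ENSG00000142089.14) at 319669 to 327537 on the minus strand. Levels between genes were compared as CPM per kilobase of transcript among 14827 protein-coding genes tested. IFITM3 ranked 287, above 98.1% of these genes, with 175 and 358 CPM per kilobase in KO 1 and KO 2, against 219 and 247 CPM per kilobase in the controls. IFITM2 ranked 395 by mean level, with 137 and 265 CPM per kilobase in KO, against 189 and 177 CPM per kilobase in control. IFITM1 ranked 405, with 70.6 and 325 CPM per kilobase in KO, against 154 and 198 CPM per kilobase in control. All 3 genes stayed far above the median level of 7.63 CPM per kilobase in every library. IFITM1 held rank 1211 in KO 1 and rank 227 in KO 2, against ranks 532 and 325 in the controls, so even its lowest library kept it in the top 10%.

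In each IFITM gene the controls lay between the KO libraries. IFITM1 had 59.6 and 274 CPM in KO 1 and KO 2, against 130 and 167 CPM in the controls, and averaged 167 ± 152 CPM in KO and 148 ± 26.4 CPM in control (SD, n = 2 each). IFITM2 averaged 127 ± 57.2 CPM in KO and 116 ± 5.39 CPM in control. IFITM3 averaged 190 ± 92.2 CPM in KO and 166 ± 13.8 CPM in control. The groups overlapped in all 3 genes. Their log2 fold changes were 0.17 ± 0.61 for IFITM1, 0.14 ± 0.34 for IFITM2 and 0.19 ± 0.35 for IFITM3 (SE), with an edgeR adjusted p of 0.997 for each. With quantile normalisation all 3 turned negative, to -0.32, -0.051 and -0.0027. The exons of IFITM1 and IFITM2 overlap on the same strand, so reads of the shared part may not have been counted for either gene.

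**Figure D1:**
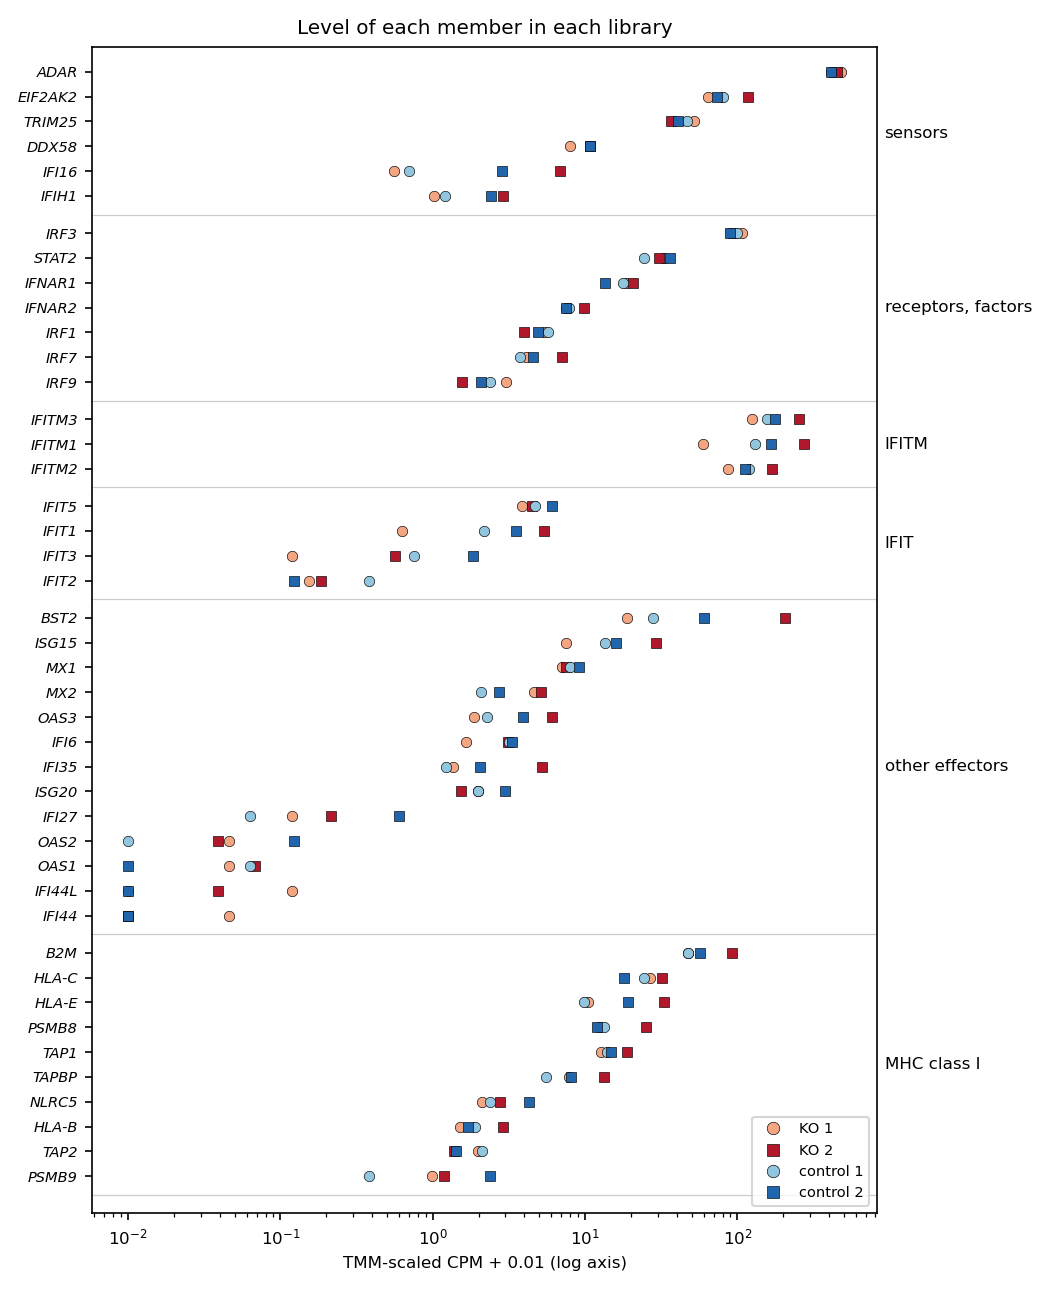
Level of each of the 43 members in each library, as TMM-scaled CPM plus 0.01 on a log axis, grouped by role. Orange circles are KO 1, red squares KO 2, light blue circles control 1 and dark blue squares control 2; the IFITM genes and ADAR lie at the right, IFI44 and OAS2 at the left, and red squares lie right of orange circles in most rows between.

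Outside the IFITM genes only ADAR, IRF3, B2M and BST2 were in the top 10% of protein-coding genes by mean level per kilobase, 7 members in all. Of the 37 tested members, 24 were below the median gene, and the median member stood above 31.8% of genes. ADAR, which edits adenosine to inosine in double-stranded RNA, ranked 1241, and IRF3, the transcription factor that sensors activate to induce interferon, ranked 1244. B2M, the light chain shared by all class I molecules, ranked 1378. BST2, also called tetherin, holds budding virus particles at the cell surface and ranked 1061 by mean level, with rank 4289 in KO 1 and rank 389 in KO 2, against ranks 3034 and 1221 in control. At the low end TAP2 ranked 13674 and IFIT3 ranked 13572.

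The 6 members that were not tested had almost no reads. IFI44 had 1 and 0 reads in KO, against 0 and 0 in control, and IFI44L had 3 and 1 reads in KO, against 0 and 0 in control. Both are effectors that many cell types induce strongly after interferon treatment. OAS1 and OAS2, synthetases whose product activates RNase L, had 1 to 2 reads in KO, against 0 to 4 reads in control. IFIT2 had 4 and 6 reads in KO, against 14 and 4 reads in control. IFI27 had 3 and 7 reads in KO, against 2 and 21 reads in control. A count of 0 allows up to 3 reads, which is 0.0877 to 0.109 CPM in the KO libraries and 0.0794 to 0.0843 CPM in the controls, for counting error only.

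The comparison of KO with control asks how loss of SLC35F2 bears on these genes. No member passed edgeR's quasi-likelihood test at an adjusted p of 0.05, beside 5 of 19027 genes (0.0263%). The count of members at an unadjusted p under 0.05 was 0 of 37 with edgeR, 1 with DESeq2 and 0 with limma-voom, and both of these tools also called 0 members. Over all genes 773 had an edgeR p under 0.05, where 951 would fall there by chance alone. The median log2 fold change of the tested members was 0.17, beside 0.029 over all genes tested, and 27 of 37 were positive. With library sizes unscaled by TMM those medians became 0.0089 and -0.097.

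Both KO libraries lay above both controls in 4 members, ADAR, IFNAR1, MX2 and HLA-C, of the 37 tested, beside 15.9% of all genes tested. Both lay below in 5 members, IFIT3, IFIT5, IFI6, ISG20 and MX1, beside 16.3% of all genes. The groups overlapped in the other 28. As shares of the 37 tested members, both counts were below the shares of all genes.

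**Figure D2:**
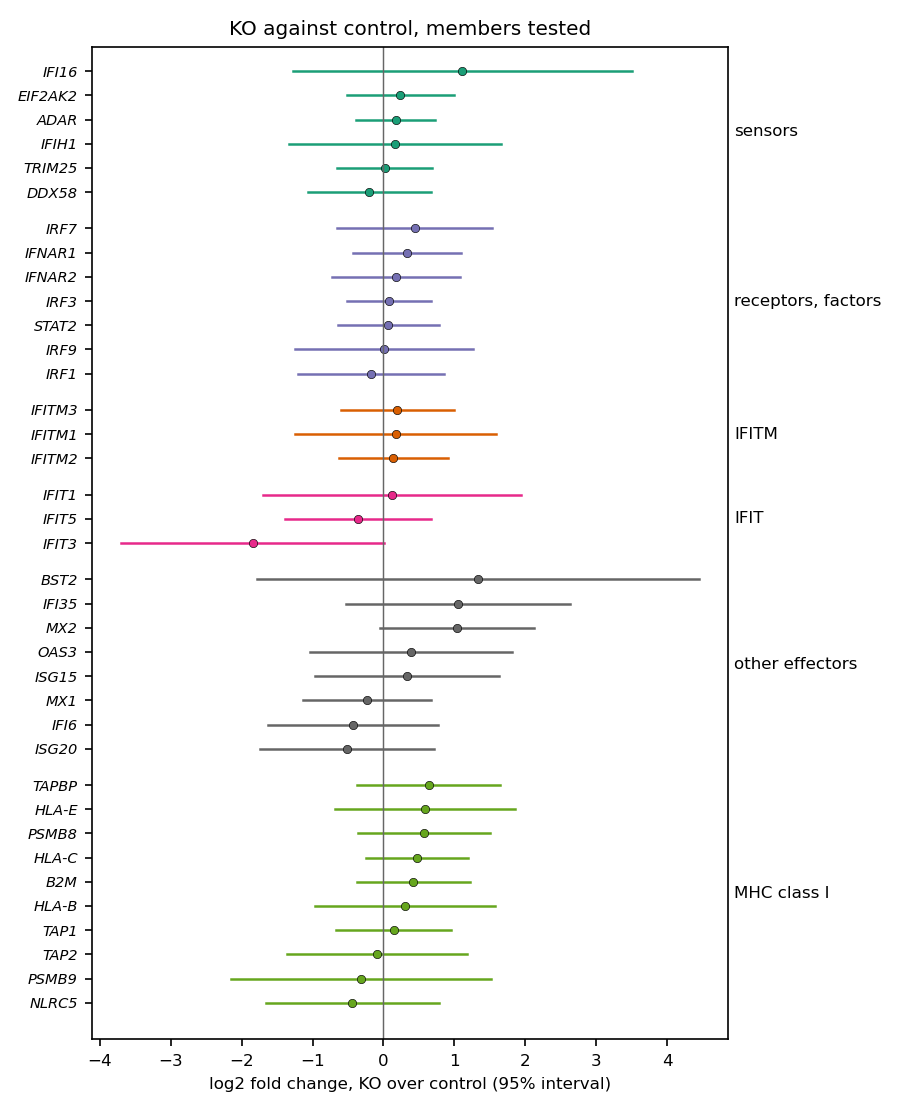
Fitted log2 fold change, KO over control, of the 37 tested members by role, with 95% intervals (bars, t distribution of the edgeR model). Every interval contains 0, from IFIT3 at -1.85 to BST2 at 1.33, and the widest belong to BST2, IFI16, IFIT3 and PSMB9.

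The outcome depended on the KO library kept. Without KO 1, edgeR called 1096 genes (5.31%), and 4 members among them were above control, BST2 with a log2 fold change of 2.22, IFI16 with 1.97, IFI35 with 1.70 and HLA-E with 1.2. Without KO 2, it called 188 genes (0.927%), and 1 member among them, IFITM1, was below control with a log2 fold change of -1.31 and an adjusted p of 0.0475. The median log2 fold change of the tested members was 0.42 without KO 1 and -0.27 without KO 2. In each of these fits the lone KO library was assumed to vary like the controls. Leaving out either control called no member.

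The sensors ranged from ADAR, the most abundant of them, to the scarce IFI16 and IFIH1. ADAR had 479 and 449 CPM in KO 1 and KO 2, against 412 and 411 CPM in the controls. Its KO libraries were both higher, by a log2 fold change of 0.17 ± 0.24 (SE, edgeR adjusted p of 0.997). EIF2AK2, the kinase PKR that stops translation when it binds double-stranded RNA, had 64.0 and 117 CPM in KO, against 80.2 and 73.5 CPM in control. The EIF2AK2 groups overlapped, with KO 2 alone standing apart. IFI16 (ENSG00000163565.17, chromosome 1, 158999968 to 159055155, plus strand), a sensor of DNA, had 0.545 and 6.81 CPM in KO, against 0.688 and 2.84 CPM in control. IFI16 was thus below 1 CPM in KO 1 and control 1 and several times higher in KO 2 and control 2. The RNA helicases DDX58 (RIG-I) and IFIH1 and the ubiquitin ligase TRIM25 had log2 fold changes of -0.20 to 0.16.

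The receptor and transcription factor genes varied least. IRF3 had 107 and 93.5 CPM in KO, against 99.8 and 89.3 CPM in control. STAT2, which joins IRF9 in the complex that binds the ISRE, had 32.8 and 30.8 CPM in KO, against 24.5 and 36.1 CPM in control. In both genes the libraries of the groups interleaved. Of the 7 genes in this group, KO 2 was above KO 1 in 3, and IFNAR1, with 18.6 and 20.7 CPM in KO against 17.8 and 13.5 CPM in control, was the only one with both KO libraries above. IFNAR2, the partner chain of the receptor, had 7.52 and 9.85 CPM in KO, against 7.89 and 7.53 CPM in control. IRF9 was the tested member with the largest gap the other way, at 3.02 CPM in KO 1 and 1.55 CPM in KO 2, against 2.38 and 2.08 CPM in control. IRF1 and IRF7, factors that are themselves induced by interferon, had log2 fold changes of -0.18 and 0.44.

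The IFIT proteins bind foreign RNA ends and block their translation, and their genes lie side by side on chromosome 10. IFIT1 had 0.618 and 5.35 CPM in KO, against 2.17 and 3.51 CPM in control. The controls lay between the KO libraries, and the log2 fold change was 0.12 ± 0.79 (SE). IFIT3 had 0.109 and 0.555 CPM in KO, against 0.741 and 1.83 CPM in control, from 3 and 19 reads against 28 and 65 reads. Both KO libraries were lower, and its log2 fold change of -1.85 ± 0.82 had the smallest p of any member, 0.0506 (edgeR, adjusted p of 0.997). It stayed negative, between -3.50 and -1.08, whichever library was left out. IFIT5, which binds RNA with a triphosphate end, had 3.85 and 4.50 CPM in KO, against 4.71 and 6.07 CPM in control, with no overlap between the groups but a log2 fold change of only -0.36 ± 0.45.

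Among the other effectors, BST2 and ISG15 gave the clearest split between KO libraries. BST2 (ENSG00000130303.11, chromosome 19, 17402939 to 17405648, minus strand) had 18.7 and 205 CPM in KO 1 and KO 2, from 515 and 7023 reads, against 28.1 and 60.8 CPM in the controls, from 1061 and 2164 reads. KO 2 was the highest library and KO 1 the lowest, so that the KO mean of 112 ± 132 CPM and the control mean of 44.5 ± 23.1 CPM (SD, n = 2 each) differ by less than the KO spread. ISG15, a ubiquitin-like protein that is attached to other proteins, had 7.45 and 29.2 CPM in KO, against 13.5 and 15.9 CPM in control. Again both controls lay between the KO libraries. IFI35, a partner of other interferon-induced proteins, had 1.34 and 5.20 CPM in KO, against 1.22 and 2.02 CPM in control, and only KO 2 stood above the rest.

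MX2 did not follow this split. This GTPase, which restricts retroviruses at the nuclear pore, had 4.61 and 5.14 CPM in KO, against 2.07 and 2.70 CPM in control. Both KO libraries were higher and close to each other, and the log2 fold change was 1.04 ± 0.48 (SE), with an edgeR p of 0.0601 and an adjusted p of 0.997. It ranged from 0.86 to 1.24 when any 1 library was left out. Its neighbour on chromosome 21, MX1, had 7.08 and 7.45 CPM in KO, against 8.0 and 9.11 CPM in control, and so lay on the other side with no overlap. OAS3, the one oligoadenylate synthetase gene with enough reads, had 1.85 and 6.05 CPM in KO, against 2.25 and 3.91 CPM in control. IFI6 and ISG20 had both KO libraries below control, with log2 fold changes of -0.42 and -0.51.

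Class I presentation genes spanned a wide range of levels, with B2M among the abundant messages and TAP2, NLRC5 and PSMB9 among the scarce ones. B2M had 47.1 and 92.2 CPM in KO, against 47.2 and 56.7 CPM in control. KO 1 and control 1 were alike and KO 2 was the highest, and the log2 fold change was 0.42 ± 0.35 (SE). HLA-C, a classical heavy chain, had 26.6 and 32 CPM in KO, against 24.2 and 18.0 CPM in control. Its KO libraries were both above the controls, by a log2 fold change of 0.47 ± 0.32 with an edgeR p of 0.173. HLA-B, another classical heavy chain, had only 1.49 and 2.86 CPM in KO, against 1.88 and 1.69 CPM in control. HLA-E, the heavy chain recognised by natural killer cell receptors, had 10.5 and 32.8 CPM in KO, against 9.88 and 19.1 CPM in control. HLA-E was therefore low in KO 1 and control 1 and higher in KO 2 and control 2, as IFI16 was. Class I heavy chain genes resemble one another closely and vary between people, and the exons of HLA-B and HLA-C overlap, so their reads may not be fully separated and these levels are uncertain.

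The other class I genes encode peptide-loading factors, immunoproteasome subunits and a transcriptional activator. TAPBP, or tapasin, which holds empty class I molecules at the peptide transporter, had 7.81 and 13.4 CPM in KO, against 5.56 and 8.09 CPM in control. Its groups overlapped narrowly, and the log2 fold change was 0.64 ± 0.44 (SE). PSMB8, an immunoproteasome subunit, had 12.4 and 25.2 CPM in KO, against 13.3 and 12.1 CPM in control. PSMB9, another immunoproteasome subunit, was the tested member whose controls differed most, with 0.981 and 1.17 CPM in KO, against 0.371 and 2.36 CPM in control. The transporter subunits TAP1 and TAP2 and NLRC5, the activator of class I transcription, had log2 fold changes of 0.14, -0.087 and -0.44. Exons of PSMB8 and PSMB9 overlap on opposite strands, and 19 members in all overlap exons of another gene, 10 on the same strand and 14 on the opposite strand, where reads may be divided or lost.

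Summed by role, the groups of genes differed in how far the KO libraries lay apart. The sensors summed to 605 and 623 CPM in KO 1 and KO 2, against 551 and 541 CPM in the controls, most of it ADAR. The receptors and transcription factors summed to 178 and 167 CPM in KO, against 162 and 158 CPM in control. In these sums the KO libraries were close to each other and above the controls, with an exact two-sided permutation p of 0.333 in each, the smallest that 2 against 2 libraries allow. The difference was 0.17 in log2 for the sensors and 0.11 for the receptors and factors, and without TMM scaling it was 0.042 and -0.011, which turns the direction of the receptors and factors.

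The sums of the other roles followed the split between KO libraries. The IFITM genes summed to 271 and 697 CPM in KO, against 406 and 455 CPM in control (exact permutation p of 1). The other effectors summed to 45 and 263 CPM in KO, against 60.3 and 101 CPM in control (exact permutation p of 1), most of the KO 2 sum being BST2. The class I genes summed to 124 and 223 CPM in KO, against 121 and 138 CPM in control (exact permutation p of 0.667). The IFIT genes summed to 4.72 and 10.6 CPM in KO, against 8.0 and 11.5 CPM in control (exact permutation p of 0.667).

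**Figure D3:**
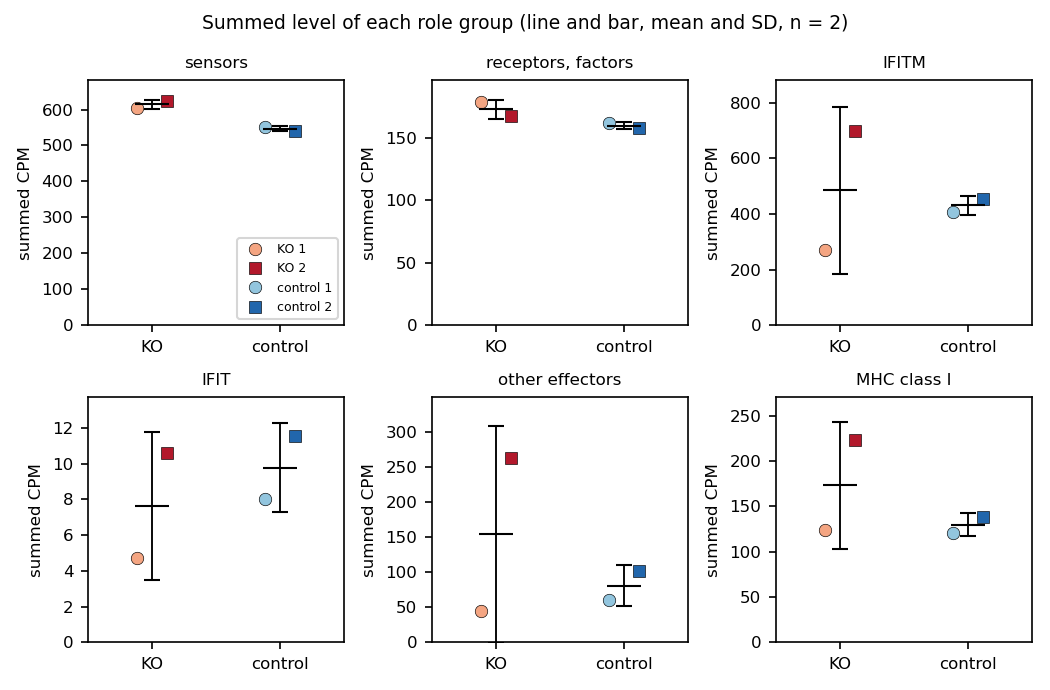
Summed TMM-scaled CPM of each role group in each library, with the mean (line) and SD (bar) of 2 KO and 2 control libraries. KO libraries lie close together for sensors and for receptors and factors, and far apart for IFITM genes (271 and 697 CPM) and other effectors (45 and 263 CPM, whose SD bar reaches below 0 and is cut off there).

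The spread within KO was wider for these genes than for genes at large. The median absolute log2 ratio of KO 2 to KO 1 was 0.79 over the tested members, beside 0.53 over all genes tested. The same measure between the controls was 0.36 over the members and 0.36 over all genes. With sign kept, the member median was 0.78 and that of all genes was -0.00092. KO 2 was more than 2-fold above KO 1 in 12 members, or 32.4% beside 12.6% of all genes, and more than 2-fold below in 0 members beside 13.8% of all genes. Over the 75 other pathway genes tested, described below, the median absolute ratio within KO was 0.51, near that of all genes. Their median with sign kept was 0.24, with 18.7% more than 2-fold above and 2.67% more than 2-fold below. With 1 pair of libraries in each group, these shares describe the libraries and were not tested.

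The fold between KO libraries was far beyond counting error for the 5 genes with the widest gaps among members with a mean of at least 1 CPM. These genes were picked by that same fold, so their intervals are no separate support for the gaps. KO 2 was 12.1 times KO 1 for IFI16, with a 95% counting interval of 2.89 to 4.50 on the log2 scale. BST2 was 11 times higher in KO 2 (log2 interval 3.33 to 3.59), IFIT1 8.44 times (2.40 to 3.93), IFITM1 4.6 times (2.13 to 2.28) and ISG15 3.91 times (1.75 to 2.19). IFIT3, below 1 CPM on average, was 4.48 times higher in KO 2, but from few reads, with a log2 interval of 0.58 to 4.75. These intervals cover counting error only. They treat reads as independent molecules, which sequenced reads are not, so they may be too narrow. Between the controls, control 2 was 4.07 times control 1 for IFI16, 2.16 times for BST2, 1.61 times for IFIT1, 1.29 times for IFITM1 and 1.18 times for ISG15. IFI16 and BST2 therefore differed more than 2-fold in both groups, and IFIT1, IFITM1 and ISG15 in KO alone.

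Over the 37 tested members, control 2 was above control 1 in 23 (62.2%), beside 51% of all genes, and 21 members (56.8%) were higher in both KO 2 and control 2, beside 30.6% of all genes. The KO ratio was the wider one in 27 members (73.0%), beside 63.4% of all genes. Measured against the control mean, the median member lay at -0.25 in KO 1 and 0.54 in KO 2, against -0.12 in control 1 and 0.12 in control 2, on the log2 scale.

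**Figure D4:**
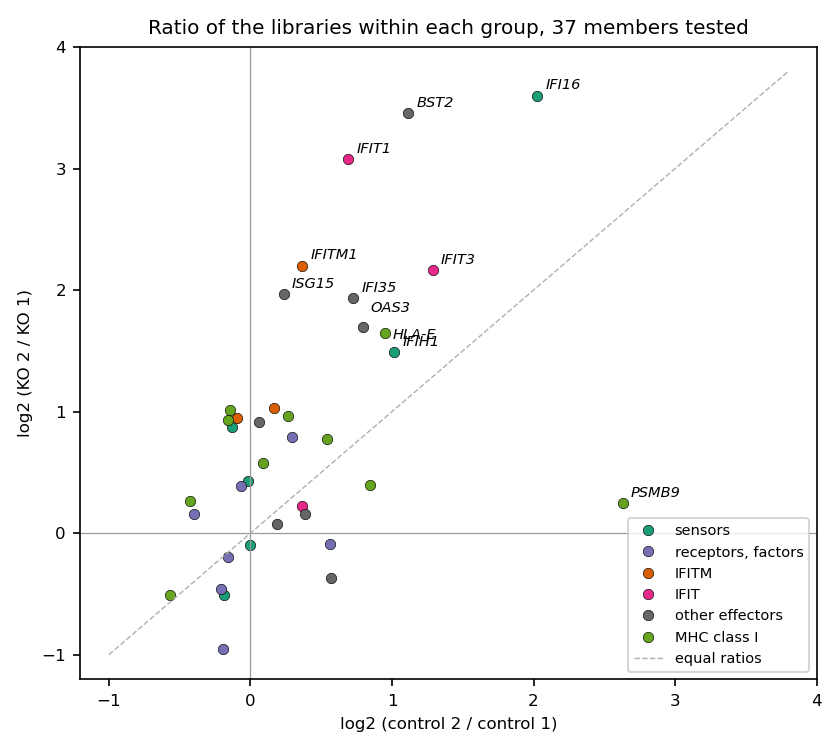
For each of the 37 tested members, the log2 ratio of KO 2 to KO 1 (vertical) against that of control 2 to control 1 (horizontal), coloured by role, with a dashed line of equal ratios. IFI16, BST2, IFIT1, IFITM1, IFIT3 and ISG15 lie at the top, 29 members lie above 0 on the vertical axis, and PSMB9 alone lies far to the right.

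Other properties of the libraries were set beside this spread, and single markers went both ways. KO 2 had the lowest sum of pluripotent cell markers, given above, with 1 of 12 of them above KO 1. The 10 fibroblast and stromal markers summed to 581.9 and 1129 CPM in KO, against 558 and 900 CPM in control, and KO 2 was above KO 1 in 4 of the 7 tested. The collagen gene COL1A1 had 46.7 and 551 CPM in KO, against 128 and 300 CPM in control, while THY1, which stem cells also express, had 428 and 337 CPM in KO, against 296 and 375 CPM in control. The fibroblast markers DCN, LUM and FAP stood at 0 to 0.182 CPM in every library, but others of the list were expressed. COL1A2 had 93.5 and 221 CPM in KO, against 115 and 198 CPM in control. PDGFRB had 9.74 and 15.6 CPM in KO, against 12.9 and 24.7 CPM in control. COL3A1 had 0.291 and 3.65 CPM in KO, against 1.32 and 0.0562 CPM in control. POSTN and TWIST2, like THY1, were lower in KO 2 than in KO 1. The 8 neuroectoderm markers summed to 662 and 1171 CPM in KO, against 619 and 945 CPM in control, most of it NES, which stem cells also express. KO 2 was above KO 1 in 4 of these 8. The 10 trophoblast markers summed to 19.3 and 27.7 CPM in KO, against 19.7 and 43.6 CPM in control, with CGA at 0 throughout. KO 2 was above KO 1 in 4 of the 5 trophoblast markers tested. TFAP2C had 0.981 and 8.36 CPM in KO, against 4.87 and 14.6 CPM in control. GATA3 had 0 and 1.52 CPM in KO, against 0.212 and 0.928 CPM in control. GATA2 had 0.109 and 0.146 CPM in KO, against 0.503 and 8.57 CPM in control. KRT7, most of the KO 1 sum, went the other way within KO, with 17.8 and 16.5 CPM, against 13.7 and 13.8 CPM in control. The 6 endothelial markers summed to 11 and 21.0 CPM in KO, against 24.4 and 23.4 CPM in control, and the 10 blood cell markers to 6.76 and 9.12 CPM in KO, against 9.69 and 14.6 CPM in control. The part of these markers in the spread was not tested. Reads that fell to no single gene made up 16.7% and 14.4% in KO, against 17.8% and 20.3% in control.

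The spread was also set against transcript base composition. Among genes with a transcript GC content of 60% or more, the median log2 ratio of KO 2 to KO 1 was 0.14 over all genes and 0.78 over the 6 members there. From 55% to 60% it was 0.0029 over all genes and 0.75 over 12 members, and from 50% to 55% it was -0.085 over all genes and 0.54 over 6 members. From 45% to 50% the members were close to all genes, at 0.030 over 4 members, 2 of them above 0, and -0.054 over all genes. Below 45% it was 0.011 over all genes and 0.97 over 9 members, and all 9 were above 0. With the trend on transcript GC content removed, the median absolute ratio within KO was 0.65 over the members, beside 0.53 over all genes. In that setting 29 of 37 members were above 0. With quantile normalisation the median was 0.61 over the members, beside 0.50 over all genes, and 27 of 37 members were above 0. The part of base composition in the spread was not tested.

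Of the 43 members, 34 had a promoter in the RefSeq table, a window from 250 bases before the start to 50 bases after it. The ISRE core lay in 20 of these 34 windows (58.8%), beside 1255 of all 35116 promoters (3.57%). A looser form without the last base, which includes every match of the core, lay in 21 (61.8%), beside 8.11% of all promoters. The core of the GAS element, TTCNNNGAA, lay in 10 (29.4%), beside 7.66% of all promoters. Both strands were searched, and a GAS match may share bases with an ISRE match. A match describes the letters in the window and does not show that a factor binds there.

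Among tested members with a promoter sequence, 17 had the ISRE core and 13 did not. Of the 17 with the core, KO 2 was above KO 1 in 15, by more than 2-fold in 9, and their median log2 ratio was 1.02. Of the 13 without it, KO 2 was above KO 1 in 8, by more than 2-fold in 2, and their median log2 ratio was 0.24. Whether the core bears on the ratio was not tested, and the same split was not counted over all genes tested. Single genes went both ways. IFI16 and IFI35 had no core in the window and were among the members with the widest gaps, though IFI16 held the looser form. ISG20, TAP2, MX1 and IFIT5 had a core and ratios near 0 or below. Between the controls the medians were 0.36 with the core and -0.016 without it. The log2 fold changes of KO over control had medians of 0.17 with the core and 0.14 without it.

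**Figure D5:**
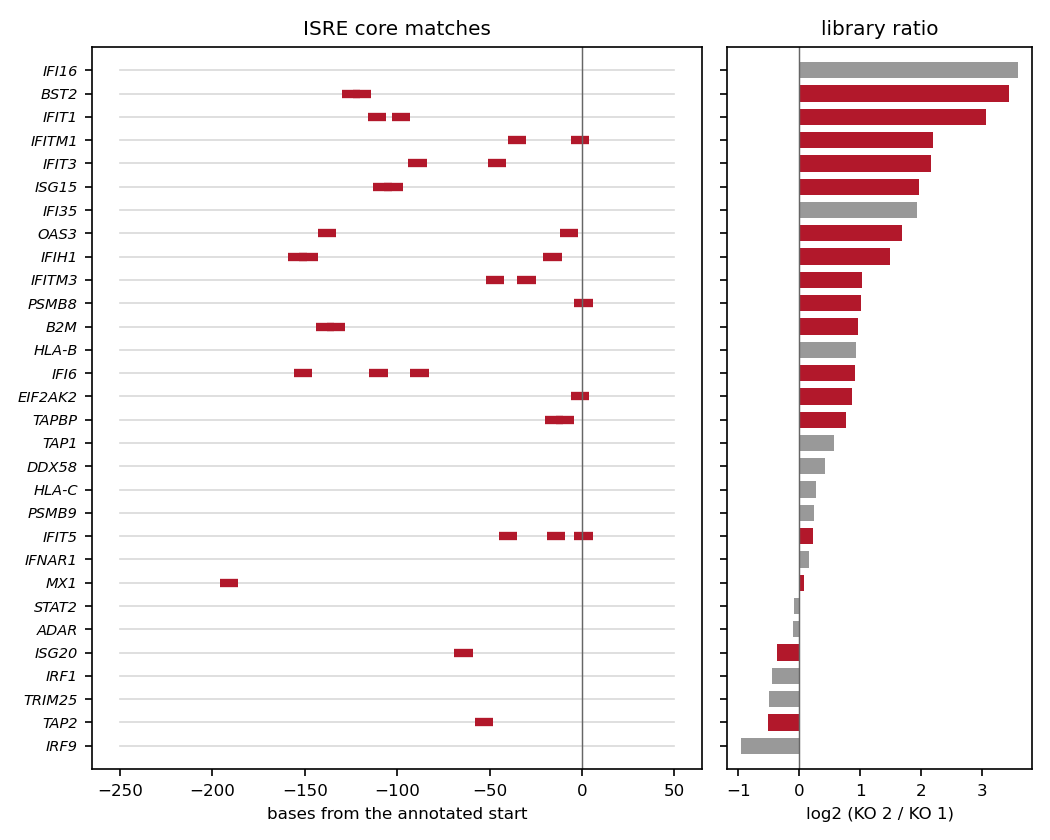
Left, positions of ISRE cores (red bars) in bases from the annotated start, for the 30 tested members with a promoter sequence, ordered by library ratio; right, log2 ratio of KO 2 to KO 1 for the same genes, red where the window holds a core and grey where it does not. Most red bars are in the upper rows, with IFI16 and IFI35 grey among them and ISG20 and TAP2 red near the bottom.

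Of 94 other genes of the pathway, 75 had enough reads to be tested, and edgeR, DESeq2 and limma-voom each called 0 of them. At an unadjusted edgeR p under 0.05 there were 4 of 75, beside 773 of 19027 genes, which is about the background share. They are named here because of these values. SOCS3, an inhibitor of cytokine receptor signalling, had 26.2 and 11.5 CPM in KO, against 34.4 and 64.8 CPM in control, a log2 fold change of -1.40 ± 0.46 (SE). TRIM22, an antiviral ubiquitin ligase, had 25.6 and 38.3 CPM in KO, against 47.8 and 71.0 CPM in control. HERC5, the ligase that attaches ISG15 to proteins, had 16.9 and 23.2 CPM in KO, against 29.3 and 38.6 CPM in control. In these 3 genes both KO libraries lay below both controls. MAVS, the mitochondrial adaptor of the RNA sensors, had 101 and 119 CPM in KO, against 73.4 and 67.4 CPM in control, so both KO libraries lay above. The adjusted p of each was 0.997. Over the 75 genes, both KO libraries were above control in 8, beside 15.9% of all genes, and below in 11, beside 16.3% of all genes, so both shares were under those of all genes. The median log2 fold change was 0.069, beside 0.029 over all genes tested. Without KO 1, the log2 fold change was -2.09 for SOCS3 and 2.17 for the adaptor TICAM1.

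Among the 8 most abundant pathway genes per kilobase, 2 from each of 4 lists, the groups overlapped in 6. Over all genes tested, both KO libraries lay above both controls in 15.9% and below both in 16.3%, so most genes overlapped. CALR, the chaperone calreticulin that folds class I chains, had 963 and 806 CPM in KO, against 1056 and 651 CPM in control. PSMB5, the constitutive proteasome subunit that PSMB8 replaces, had 233 and 230 CPM in KO, against 217 and 162 CPM in control. In CALR the groups overlapped, and in PSMB5 both KO libraries lay above. PTPN11, a tyrosine phosphatase of cytokine signalling, had 208 and 206 CPM in KO, against 222 and 189 CPM in control. STAT3, a transcription factor of cytokine signalling, had 137 and 84.6 CPM in KO, against 106 and 128 CPM in control. Both genes overlapped between groups. ZCCHC3, a cofactor of nucleic acid sensors, had 108 and 110 CPM in KO, against 94.8 and 84.5 CPM in control. MYD88, the adaptor of Toll-like receptors, had 47.9 and 34.3 CPM in KO, against 40.6 and 25.8 CPM in control. Of this pair, ZCCHC3 alone had both KO libraries above control. SHISA5 had 152 and 251 CPM in KO, against 166 and 131 CPM in control, and LGALS3BP, a secreted glycoprotein, had 71.9 and 133 CPM in KO, against 70.4 and 72.4 CPM in control. In both, KO 2 was the one library that stood apart. None of these 8 genes passed the test, with an edgeR adjusted p of 0.997 or more.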

How the data were processed

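The authors deposited whole-number read counts per Ensembl gene for each of the 4 libraries, not normalised. Trizol and spin columns gave the RNA and a stranded mRNA kit the libraries, per the labels' protocols. Quantile normalisation is also mentioned there, but unequal whole-number totals do not carry it. HTSeq 0.11.0, STAR 2.6.0a, cutadapt 1.8.1, FastQC 0.11.7 and the GRCh38 build are named per the submitters' processing notes. Which annotation release and strand setting HTSeq used is not given in the sources used here. Reads given to no single gene stayed out of library sizes.

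Names, positions and lengths (median basic protein-coding transcript) came from GENCODE 29, which matched 93.8% of identifiers. filterByExpr removed genes with few reads (minimum count 10). KO was compared with control by edgeR 4.0.16 (R 4.3.3, TMM, robust quasi-likelihood F test, two-sided, Benjamini-Hochberg over all genes, threshold 0.05), which was tested on simulated data. Each SE was derived from the fold change and its F value. The common dispersion was 0.132. A chi-square per degree of freedom of 124 between KO and 54.6 between control libraries showed no copies. DESeq2 1.42.0 and limma 3.58.1 served as alternatives. Ratios between libraries used 0.5 added reads.

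Values in every library are given for the IFITM genes, HLA-B, HLA-C, HLA-E, B2M, the 5 members of at least 1 CPM with the largest KO ratio, the 5 with the smallest p and the 2 most abundant per role or pathway list. Any further gene with printed values was picked with those values known. The members, lists and rules were chosen with earlier results of these data known.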

Additional observations from a re-analysis of the deposited data

How the results depend on the processing

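No alternative that kept all 4 libraries called a member or another pathway gene. With 2 libraries a group, changes of moderate size may go uncalled, and members with few reads, such as IFIT3, carry wide intervals. The count of all genes called, 5 in the reported fit, was 52 with DESeq2, 1 with the legacy edgeR fit, 0 with library size only, 0 with limma-voom, 0 with a mean of at least 1 CPM, 8 with no filter, 1 with quantile normalisation, 9 with either the transcript GC or the length trend removed (both added after seeing the data), 0 with upper-quartile factors and 0 at an adjusted p under 0.01. With the replicate block it was 76, with 0 members and 0 other pathway genes called; the labels do not say that the numbers pair libraries, and same-numbered libraries deviated together with a correlation of 0.33 over 2 pairs. Members lower in both KO libraries numbered 3 with thinned counts, with quantile normalisation and with the length trend removed.

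The log2 difference of summed sensors was 0.042 with library size only, 0.13 with a mean of at least 1 CPM, 0.057 with quantile normalisation, 0.22 with the GC trend removed and 0.085 with upper-quartile factors. That of receptors and factors was -0.011 with library size only, 0.048 with quantile normalisation and 0.030 with upper-quartile factors.

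Leaving out each library in turn gave ranges of 3 to 1096 genes called, 0 to 4 members called, 0 to 2 other pathway genes called, 7 to 23 members higher and 9 to 20 lower, and a member median of -0.27 to 0.42. In these fits a lone library need only lie above or below the whole other group, a looser rule than with all 4 libraries kept. The shares of all genes that lie higher or lower are not given for these fits. The counts of members higher and lower therefore cannot be compared with those of the reported fit, and no conclusion about the members is drawn from them. Log2 differences of the sums ranged from 0.15 to 0.20 for sensors, 0.079 to 0.16 for receptors and factors, -0.66 to 0.71 for IFITM, -1.05 to 0.13 for IFIT, -0.84 to 1.72 for other effectors and -0.067 to 0.79 for class I. Log2 fold changes that turned ranged from -1.31 to 0.90 for IFITM1, -0.41 to 0.55 for IFITM2, -0.41 to 0.63 for IFITM3, -0.26 to 0.69 for HLA-B, -0.46 to 1.2 for HLA-E, -0.14 to 0.84 for B2M, -1.67 to 2.44 for IFI16, -1.25 to 2.22 for BST2, -2.19 to 0.93 for IFIT1, -0.97 to 1.0 for ISG15, -0.26 to 1.70 for IFI35, -0.26 to 0.62 for EIF2AK2, -0.0042 to 0.18 for IRF3, -0.18 to 0.37 for STAT2, -0.10 to 0.14 for PTPN11, -0.46 to 0.22 for STAT3 and -0.26 to 0.45 for CALR.

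Other settings also turned small fold changes, and the cause was not tested. With library size only, IFITM2 was at -0.0011, IFIT1 at -0.038, IRF3 at -0.036, STAT2 at -0.071, PTPN11 at -0.11 and CALR at -0.054. With quantile normalisation, IFITM1 was at -0.32, IFITM2 at -0.051, IFITM3 at -0.0027, IFIT1 at -0.41, IRF3 at -0.022, STAT2 at -0.0054, PTPN11 at -0.099 and CALR at -0.063. With limma-voom, IFITM1 was at -0.19 and IFIT1 at -0.52, and with the replicate block at -0.20 and -0.28. With upper-quartile factors, STAT2 was at -0.025, PTPN11 at -0.070 and CALR at -0.022. PTPN11 was at -0.0099 with thinned counts and -0.028 with a mean of at least 1 CPM.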

Other observations

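The genes of the interferons themselves were silent or nearly so. IFNB1 had 1 and 0 reads in KO and 0 and 0 reads in control, and IFNG had 2 and 0 reads in KO and 0 and 0 reads in control. IFNA1 had 0 reads in every library, which allows up to 3 reads in each. IFNE, an interferon of the reproductive tract, had 7 and 0 reads in KO and 5 and 2 reads in control. Genes of the signalling chain were present. The kinase gene JAK1 had 28.7 and 49.3 CPM in KO, against 26.8 and 45.1 CPM in control, and TYK2, which pairs with IFNAR1, had 29.9 and 31.2 CPM in KO, against 25.7 and 30.3 CPM in control.

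Genes of the APOBEC3 cytidine deaminases, chosen after their values were seen, showed a split between libraries in both groups. APOBEC3C had 19.3 and 57.6 CPM in KO, against 31.6 and 45.5 CPM in control. APOBEC3B had 7.48 and 20.0 CPM in KO, against 9.82 and 22.5 CPM in control. APOBEC3G had 0.291 and 2.78 CPM in KO, against 0.821 and 1.88 CPM in control. In all 3 genes KO 2 was above KO 1 and control 2 above control 1, and the groups overlapped. CD74, the invariant chain of class II presentation, had 20.3 and 42.6 CPM in KO, against 28.3 and 34.0 CPM in control, while the class II chain HLA-DRA stood at 0.327 and 1.46 CPM in KO, against 0.371 and 0.365 CPM in control.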
